A study of Mus musculus with 9 samples.

Results

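A set of 10 genes that mark astrocytes and Bergmann glia was followed in the cerebellum of mice that carried a human ATXN3 transgene. They were Gfap, Aqp4, Slc1a2, Slc1a3, Gdf10, Aldh1l1, S100b, Glul, Fabp7 and Hopx, chosen by symbol, and all 10 were found among the 37816 genes of the count table. ATXN3 is the gene of spinocerebellar ataxia type 3 (SCA3), in which a CAG repeat that encodes polyglutamine is expanded. All mice were on the C57BL/6 background, carried the transgene and were 18 months old at harvest. The 15Q group, the controls, carried a yeast artificial chromosome with 15 CAG repeats, and the 84Q group an allele with 84 repeats. The 84Q+IGF1 group carried 84 repeats and received intraperitoneal IGF1 (insulin-like growth factor 1) at 50 mg/kg each week from 9 to 18 months of age. The protocol gives injections of PBS to the mice without IGF1, although their labels read untreated. There were 3 libraries in each group and 9 in all. The 15Q and 84Q lines came from different sources and no mouse without a transgene was included, so the line and the repeat length cannot be told apart.

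Astrocytes take up glutamate and potassium around synapses, convert glutamate to glutamine, and line blood vessels with endfeet rich in water channels. Bergmann glia are the radial astrocytes of the cerebellar cortex. Their cell bodies lie beside those of the Purkinje cells, and their processes wrap the Purkinje dendrites. Slc1a3 encodes GLAST, the main glutamate transporter of Bergmann glia, and Slc1a2 encodes GLT-1, its counterpart in astrocytes at large. Glul encodes glutamine synthetase, Aqp4 the water channel of endfeet, and Gfap the intermediate filament that is used as a sign of astrocyte reactivity. Aldh1l1 encodes a folate enzyme found in nearly all astrocytes, and S100b a calcium-binding protein. Gdf10, a ligand of the TGF-beta superfamily, and Hopx, a homeodomain protein without DNA binding, are enriched in Bergmann glia, and Fabp7 encodes the brain fatty acid-binding protein of radial glia.

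Library totals ran from 26925001 to 58269196 counts in 15Q, from 17482654 to 28843999 in 84Q and from 23508574 to 29089855 in 84Q+IGF1. The lowest count of any of the 10 genes was 102, for Fabp7 in 84Q replicate 2. Levels of a gene are given in CPM, its counts scaled to the library total after TMM normalization. Levels of different genes are compared in TPM, which also divides by exon length. The markers of the tissue were present, with a mean over 9 libraries of 1486 TPM for Car8 of Purkinje cells and 1400 TPM for Cbln3 of granule cells. Libraries were unlike in other respects. The summed level of 12 choroid plexus genes was 521, 508 and 1071 CPM in 15Q replicate 1, 15Q replicate 3 and 84Q replicate 2, and between 28.8 and 69.6 CPM in the other 6. Xist, which coats the inactive X chromosome of females, was between 718 and 948 CPM in 4 libraries (15Q replicates 2 and 3, 84Q+IGF1 replicate 2 and 84Q replicate 1) and at most 1.15 CPM in the other 5.

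Per length, the order of the 10 genes was nearly fixed. Glul was first in each library, between 967 and 1204 TPM, and S100b second, between 712 and 772 TPM. Glul lay above S100b in 9 of 9 libraries. Slc1a3, at 322 to 636 TPM, was above Gfap in 7 of 9. The next 3 genes were not separated, with 238 to 398 TPM for Gfap, 230 to 319 TPM for Aqp4 and 189 to 322 TPM for Slc1a2. Gfap exceeded Aqp4 in 7 libraries, and Aqp4 exceeded Slc1a2 in 7. The Bergmann glia gene Gdf10 followed at 99.1 to 179.9 TPM in every library, then Aldh1l1 at 62.4 to 73.7 TPM, Hopx at 35.5 to 55.4 TPM and Fabp7 at 13.8 to 26.9 TPM. With the longest transcript in place of the union of exons as the length, mean TPM over 9 libraries was 784 for Slc1a3 and 589 for S100b, so these changed places.

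**Figure D1:**
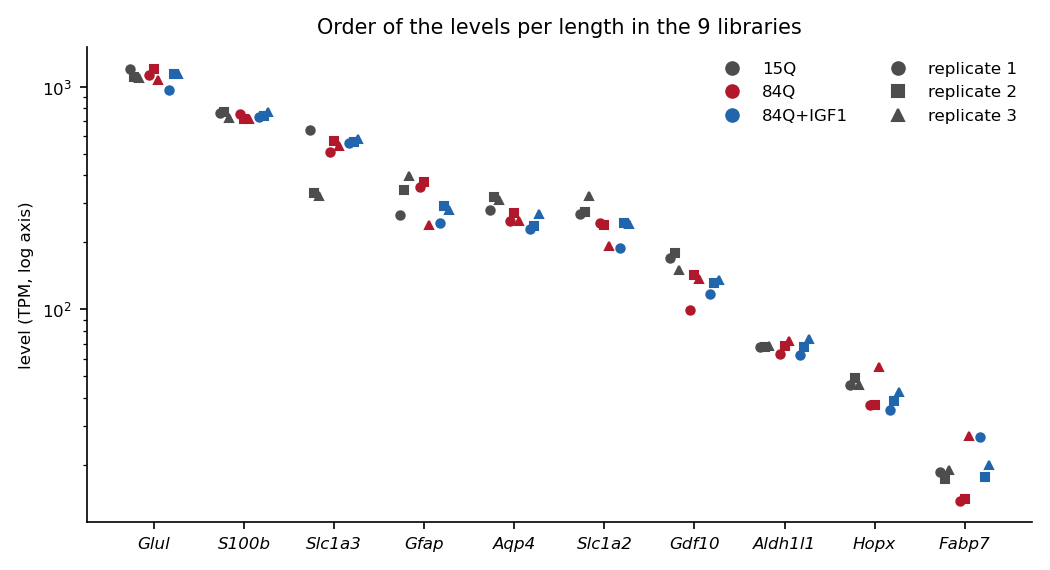
Level of each gene in TPM (log axis) in the 9 libraries, with genes ordered by their mean, colors for the groups and shapes for the replicates. Glul and S100b lead in each library, Gfap, Aqp4 and Slc1a2 lie between 189 and 398 TPM, and Fabp7 is lowest in each.

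None of the 10 genes was called in 84Q against 15Q, where 2.14% of the 19353 genes tested were called. A call in edgeR's quasi-likelihood test needed a fold change of 1.5 or more with an adjusted p under 0.1. The count was also 0 of 10 in 84Q+IGF1 against 15Q, beside 2.25% of all genes, and 0 of 10 in 84Q+IGF1 against 84Q, beside 0%. At an unadjusted p under 0.05 there were 3, 3 and 0 of the 10, beside 19.4%, 17.7% and 4.68% of all genes, and with the DESeq2 Wald test 0, 0 and 0 were called at the same thresholds. The median log2 fold change was -0.0051 in 84Q, with 5 higher and 5 lower, beside -0.0019 for all genes. It was -0.15 in 84Q+IGF1 against 15Q, with 4 higher and 6 lower, beside -0.0051 for all genes, and in 84Q+IGF1 against 84Q it was -0.024, beside -0.0033. With any 1 library left out, the median of the 10 ran from -0.084 to 0.013 in 84Q against 15Q. It ran from -0.18 to -0.094 in 84Q+IGF1 against 15Q and from -0.089 to 0.016 in 84Q+IGF1 against 84Q. Because both comparisons with 15Q share the 15Q libraries, their values stand side by side and are not independent. In whole tissue, fewer cells of a type and less RNA per cell cannot be told apart.

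**Figure D2:**
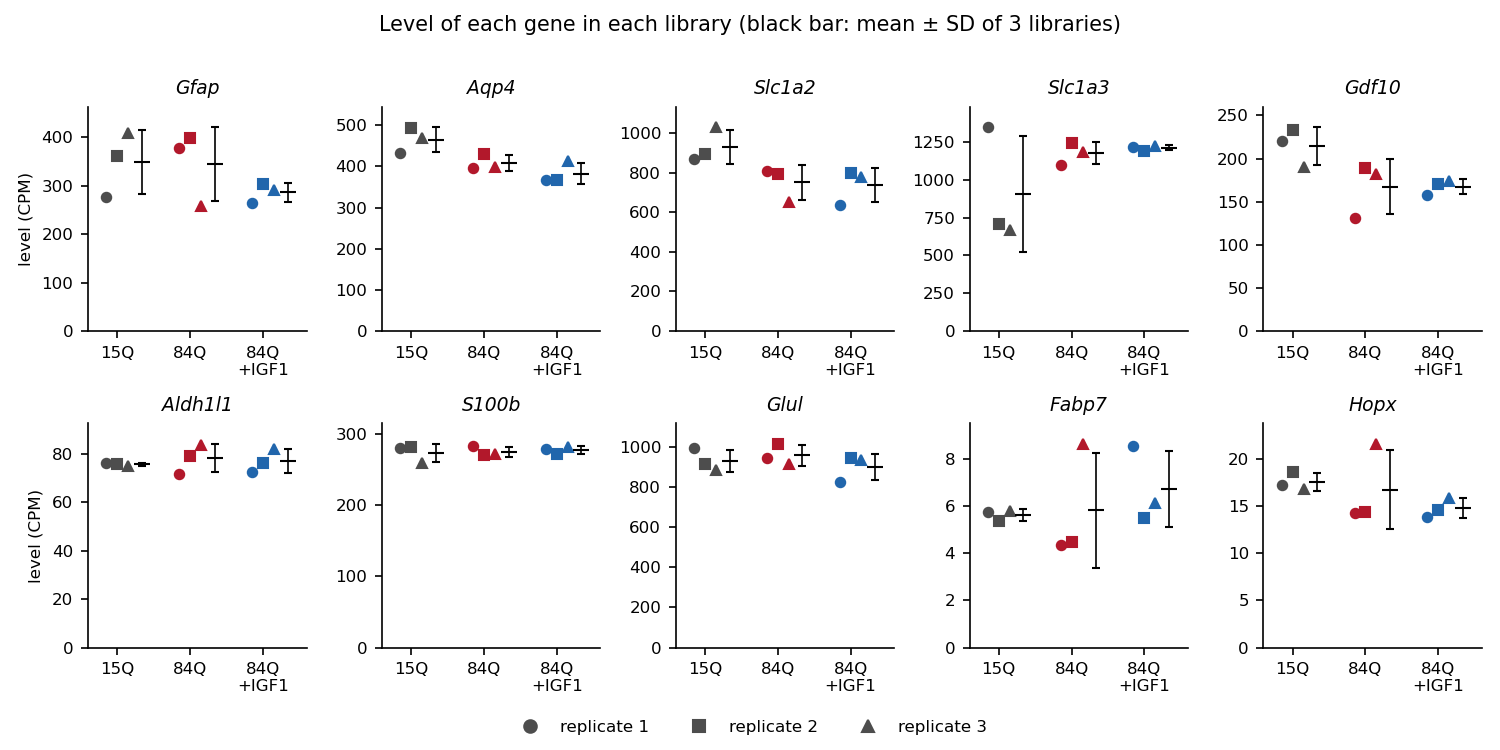
Level of each gene in CPM (linear axes from 0) in the 3 libraries of each group, with the mean and SD beside them. The 15Q libraries of Aqp4, Slc1a2 and Gdf10 lie above all 84Q libraries, Slc1a3 in 15Q is split between 1 library at 1347 CPM and a pair at 708 and 668 CPM, and the groups of Aldh1l1, S100b and Glul overlap.

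The glutamate transporter Slc1a3 had the widest spread within a group. Its level was 1347, 708 and 668 CPM in 15Q replicates 1, 2 and 3, then 1099, 1243 and 1185 CPM in 84Q and 1221, 1193 and 1221 CPM in 84Q+IGF1. The 6 libraries with 84 repeats lay within a narrow band, 2 libraries of 15Q lay far below it, and 15Q replicate 1 lay above it. The 15Q mean was 908 ± 381 CPM (SD, n = 3), that of 84Q was 1175 ± 72.6 CPM and that of 84Q+IGF1 was 1212 ± 15.9 CPM. The log2 fold change was 0.37 ± 0.20 (SE, adjusted p = 0.339) in 84Q and 0.42 ± 0.20 (adjusted p = 0.313) in 84Q+IGF1 against 15Q, and neither was called. A single library decided this. Without 15Q replicate 1 the log2 fold changes were 0.78 (adjusted p = 2.03e-04) and 0.82 (adjusted p = 1.25e-04), and Slc1a3 was called in both comparisons. Without the 3 libraries that held choroid plexus RNA, 15Q replicate 1 among them, they were 0.70 (adjusted p = 0.0253) and 0.78 (adjusted p = 0.00776), also called, with the lone 15Q library assumed to vary like the others.

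Choroid plexus RNA and Xist also varied between these libraries. Of the 3 libraries with choroid plexus RNA, 15Q replicate 3 was the lowest of all for Slc1a3 and 15Q replicate 1 the highest. The libraries with high Xist were the lowest of their group for Slc1a3 in all 3 groups, at 708 and 668 CPM in 15Q replicates 2 and 3, 1099 CPM in 84Q replicate 1 and 1193 CPM in 84Q+IGF1 replicate 2. With Xist as a covariate the log2 fold changes of Slc1a3 against 15Q were 0.28 (adjusted p = 0.427) in 84Q and 0.33 (adjusted p = 0.364) in 84Q+IGF1. They were 0.45 (adjusted p = 0.285) and 0.59 (adjusted p = 0.409) with choroid plexus RNA as a covariate, and 0.15 (adjusted p = 0.957) and 0.27 (adjusted p = 0.789) with the deviation of long genes, described with Slc1a2, as a covariate. Without 15Q replicate 2 they were 0.23 and 0.27, and without 15Q replicate 3 0.20 and 0.24. Without the filter on low counts they were 0.37 and 0.42 with adjusted p = 1.85e-05 and 6.29e-07, below the fold change for a call, and the SE was 0.072 in place of 0.20. Of the 31-base words in annotated Slc1a3 transcripts, 1.45% occurred in transcripts of any other gene, and reads shared between genes were not measured.

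The second glutamate transporter, Slc1a2, went the other way. Its level was 871, 894 and 1029 CPM in 15Q, 810, 795 and 651 CPM in 84Q, and 639, 797 and 778 CPM in 84Q+IGF1. All 15Q libraries were above all libraries with 84 repeats. Its log2 fold change was -0.31 ± 0.11 (adjusted p = 0.148) in 84Q and -0.34 ± 0.11 (adjusted p = 0.139) in 84Q+IGF1 against 15Q, so it did not pass the test. The union of the exons of Slc1a2 is long, 13133 bases. Of the 1485 tested genes with 10000 or more exon bases, 80.9% were lower in 84Q than in 15Q and 73.9% in 84Q+IGF1 than in 15Q, where 50.3% and 51.1% of all genes were. The median of these long genes was -0.12 and -0.08. With the median deviation of long genes in each library as a covariate, the log2 fold change of Slc1a2 was 0.02 (adjusted p = 0.974) in 84Q and -0.11 (adjusted p = 0.616) in 84Q+IGF1. This covariate was chosen after the values were seen, and Slc1a2 is itself among the long genes that define it. It was 0.035 to 0.116 in the 15Q libraries and -0.125 to -0.015 in those of 84Q, so it followed the group. With it, 59 of all genes were called in 84Q against 15Q, in place of 414. The fit therefore cannot tell transcript length from the group, and the part of transcript length was not tested otherwise.

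The balance between the transporters followed from these levels. The ratio of Slc1a3 to Slc1a2 in TPM was 2.38, 1.22 and 0.998 in 15Q, 2.09, 2.40 and 2.80 in 84Q, and 2.94, 2.30 and 2.41 in 84Q+IGF1. In this ratio 15Q replicate 1 lay among the libraries with 84 repeats and the other 2 below them. The summed TPM of both was 609 to 903 in 15Q, 733 to 810 in 84Q and 746 to 822 in 84Q+IGF1, and the groups overlapped.

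Glul, which acts on the glutamate that these transporters bring in, was 993, 913 and 886 CPM in 15Q, 946, 1015 and 914 CPM in 84Q, and 826, 942 and 932 CPM in 84Q+IGF1, and the groups overlapped. The log2 fold change was 0.04 (95% interval -0.11 to 0.20) in 84Q, -0.05 (-0.21 to 0.11) in 84Q+IGF1 against 15Q, and -0.09 (-0.25 to 0.07) in 84Q+IGF1 against 84Q. Of its 31-base words, 15.5% were shared with the pseudogene Glns-ps1, which had at most 140 counts in a library, while Glul had at least 16057.

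**Figure D3:**
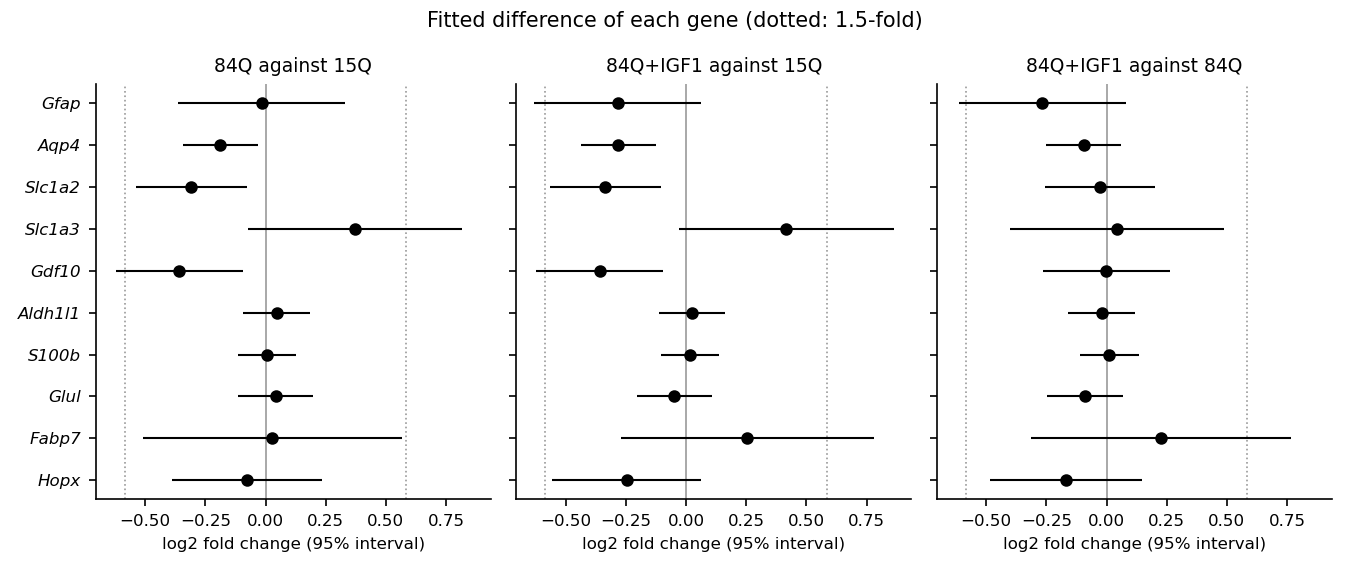
Log2 fold change of each gene in the 3 comparisons with its 95% interval, from edgeR's quasi-likelihood fit (n = 3 libraries a group). The intervals of Aqp4, Slc1a2 and Gdf10 lie below 0 in both comparisons with 15Q, that of Slc1a3 spans from -0.07 to 0.82 in 84Q, and in 84Q+IGF1 against 84Q each interval includes 0.

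Aqp4, the water channel, was 432, 493 and 468 CPM in 15Q, 395, 431 and 398 CPM in 84Q, and 368, 367 and 413 CPM in 84Q+IGF1. The lowest 15Q library was just above the highest 84Q library. The log2 fold change was -0.19 ± 0.07 (adjusted p = 0.183) in 84Q. It was -0.28 ± 0.07 (adjusted p = 0.0732) in 84Q+IGF1 against 15Q, a level 0.823 times that of 15Q (95% interval 0.739 to 0.917). In edgeR it was the only one of the 10 with an adjusted p under 0.1 in any of the 3 comparisons, and it fell short of the fold change for a call. At any fold change, 2.63% of all genes were lower in that comparison and 3.25% in 84Q against 15Q. Over the alternatives, the adjusted p of Aqp4 in 84Q+IGF1 against 15Q ran from 0.00279 to 0.367. It was 0.24 without 15Q replicate 2, 0.223 without 15Q replicate 3, 0.229 without 84Q+IGF1 replicate 1 and 0.163 without 84Q+IGF1 replicate 2. It was 0.116 with Xist and 0.276 with choroid plexus RNA as a covariate. Without the 3 libraries that held choroid plexus RNA, the log2 fold change of Aqp4 was -0.31 (adjusted p = 0.441) in 84Q and -0.36 (adjusted p = 0.257) in 84Q+IGF1 against 15Q.

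Gdf10 had the lowest log2 fold change of the 10 in both comparisons with 15Q. It was 220.5, 232 and 191 CPM in 15Q, 131, 189 and 183 CPM in 84Q, and 157, 171 and 174 CPM in 84Q+IGF1. The 15Q libraries did not overlap with the others, although 15Q replicate 3 and 84Q replicate 2 were within 2 CPM of each other. The log2 fold change was -0.36 ± 0.12 (adjusted p = 0.144) in 84Q and -0.36 ± 0.12 (adjusted p = 0.159) in 84Q+IGF1. Without 84Q replicate 1 it was -0.20 (adjusted p = 0.206) in 84Q. The DESeq2 Wald test gave adjusted p values of 0.0742 and 0.0829 for Gdf10, of 0.0739 and 0.0496 for Slc1a2, and of 0.149 and 0.00915 for Aqp4, in the same order of comparisons and without the fold change for a call.

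In all, 3 of the 10 genes, Aqp4, Slc1a2 and Gdf10, had 84Q libraries that were all below 15Q, beside 13.5% of all genes. There were 4 in 84Q+IGF1 against 15Q, with Hopx added, beside 12.9%. No gene of the 10 had groups that were apart in 84Q+IGF1 against 84Q, where 4.5% of all genes were apart with 84Q+IGF1 lower. In the other direction 0 of the 10 had groups that were apart, beside 11.9%, 11.8% and 3.98% of all genes in the 3 comparisons.

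Gfap varied among the libraries of the same group. It was 277, 361 and 409 CPM in 15Q, 378, 399 and 258 CPM in 84Q, and 265, 304 and 291 CPM in 84Q+IGF1, and all groups overlapped. The log2 fold change was -0.02 (95% interval -0.36 to 0.33) in 84Q and -0.28 (-0.63 to 0.06, adjusted p = 0.376) in 84Q+IGF1 against 15Q. The value in 84Q+IGF1 against 84Q was -0.27 (-0.61 to 0.08, adjusted p = 0.969), the lowest of the 10 in that comparison. The 2 highest 84Q libraries lay above all of 84Q+IGF1, and 84Q replicate 3 lay below them. Without 84Q replicate 3 the log2 fold change was 0.16 in 84Q against 15Q and -0.44 in 84Q+IGF1 against 84Q. With any 1 library left out, it ran from -0.44 to -0.15 in 84Q+IGF1 against 84Q and from -0.42 to -0.15 in 84Q+IGF1 against 15Q.

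The general astrocyte genes Aldh1l1 and S100b were the steadiest. Aldh1l1 was 75.9, 75.8 and 75.0 CPM in 15Q, 71.8, 79.1 and 83.4 CPM in 84Q, and 72.4, 76.2 and 82.0 CPM in 84Q+IGF1. S100b was 280.4, 282 and 260 CPM in 15Q, 283, 271 and 272 CPM in 84Q, and 279, 272 and 282 CPM in 84Q+IGF1, so that its highest library was 1.09 times its lowest. The intervals bound the differences closely. For S100b the 95% interval of the log2 fold change was -0.11 to 0.13 in 84Q and -0.10 to 0.14 in 84Q+IGF1 against 15Q, and for Aldh1l1 it was -0.09 to 0.18 and -0.11 to 0.16.

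Hopx and Fabp7 were the lowest of the 10. Hopx was 17.2, 18.6 and 16.8 CPM in 15Q, 14.2, 14.4 and 21.6 CPM in 84Q, and 13.8, 14.6 and 15.9 CPM in 84Q+IGF1. All 84Q+IGF1 libraries were below 15Q, but the log2 fold change of -0.25 (95% interval -0.56 to 0.06, adjusted p = 0.387) did not pass the test. The antisense gene Hopxos shares 412 exon bases with Hopx, and its level was at most 1.08 CPM. Fabp7 was 5.76, 5.36 and 5.79 CPM in 15Q, 4.38, 4.48 and 8.66 CPM in 84Q, and 8.57, 5.49 and 6.16 CPM in 84Q+IGF1, and the groups overlapped. Both were highest of all libraries in 84Q replicate 3, which had the fewest counts in all. Without that library, the log2 fold change in 84Q was -0.29 (adjusted p = 0.245) for Hopx and -0.35 (adjusted p = 0.467) for Fabp7, against -0.08 and 0.03 with it.

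The 10 genes did not move as 1 block across the 9 libraries. Pearson's r of log2 CPM had a median of 0.03 over their 45 pairs, with 25 positive and 20 negative. These correlations are descriptions over 9 libraries that share the group differences, the depth differences and the choroid plexus RNA. The highest were those of Aqp4 with Slc1a2 (0.74), Aqp4 with Gdf10 (0.71) and Gfap with Slc1a2 (0.71). The lowest were those of Gfap with Fabp7 (-0.78), Aqp4 with Slc1a3 (-0.72) and Glul with Fabp7 (-0.68). The summed level of the 10 genes was 3983 to 4522 CPM in 15Q, 3974 to 4442 CPM in 84Q and 3851 to 4194 CPM in 84Q+IGF1, and the groups overlapped. Without Slc1a3, the sum was 3174 to 3339 CPM in 15Q, 2789 to 3199 CPM in 84Q and 2630 to 2973 CPM in 84Q+IGF1. All 84Q+IGF1 libraries were then below 15Q, and 84Q overlapped with both. Slc1a3 was left out after its values were seen and had the highest log2 fold change against 15Q. The sum without it is therefore a description and no result about the groups.

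**Figure D4:**
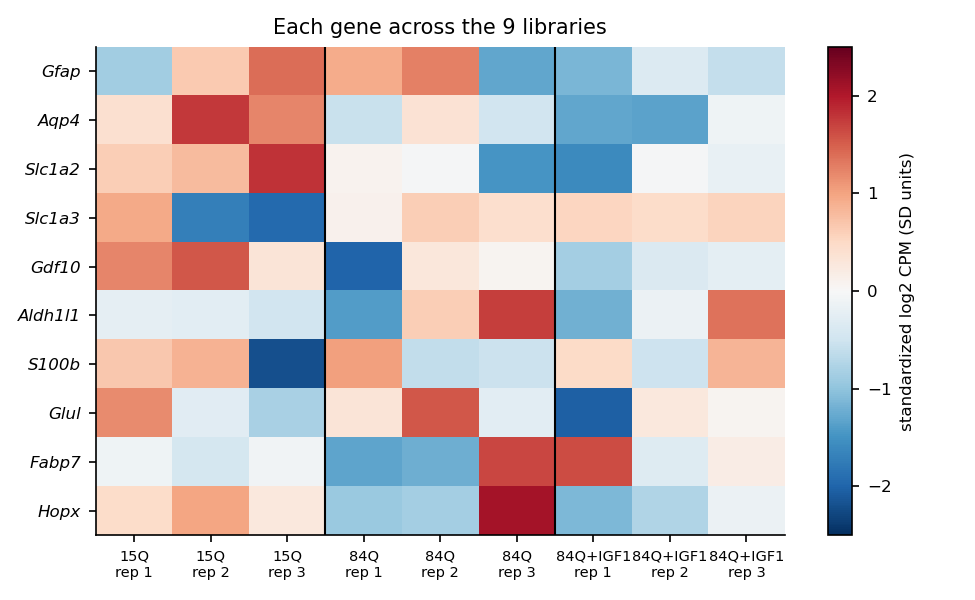
Log2 CPM of each gene, standardized over the 9 libraries, with red above and blue below the mean of the gene (in SD units) and lines between the groups. Aqp4, Slc1a2 and Gdf10 are above their means in all 15Q libraries, and Slc1a3 is below its mean only in 15Q replicates 2 and 3.

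The tested genes outside the 10 that were most like their mean standardized profile were Pla2r1 (r = 0.97), Gm35721 (0.96), Lacc1 (0.95), Armh1 (0.95) and Sfxn5 (0.94), again over 9 libraries. The mean profile itself was carried by some members more than others, with r = 0.81 for Gdf10, 0.71 for Aqp4 and -0.13 for Slc1a3. Gene by gene, the closest were Lgals3 for Gfap (0.95), Acsl5 for Aqp4 (0.96), Dnajc13 for Slc1a2 (0.99), Arrdc1 for Slc1a3 (0.96) and Gm38910 for Gdf10 (0.96). For the other 5 they were Gm13299 for Aldh1l1 (0.96), Amdhd2 for S100b (0.95), Kank4 for Glul (0.97), Mterf4 for Fabp7 (0.97) and Chad for Hopx (0.95). Each is the highest value over all tested genes outside the 10.

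The 3 promoters below are shown for the gene with the widest spread (Slc1a3), the gene with the lowest log2 fold change (Gdf10) and the gene with the least variation between libraries (S100b). Each is the 250 bases before the RefSeq start in GRCm38.p6, read 5′ to 3′ on the strand of the gene. Slc1a3 lies at chr15:8710808-8711057 on the minus strand, Gdf10 at chr14:33923337-33923586 on the plus strand and S100b at chr10:76253586-76253835 on the plus strand. In GENCODE vM21 the genes span chr15:8634124-8710764, chr14:33923587-33937983 and chr10:76253853-76261159, so each window ends before the annotated first exon. Capitals mark matches on either strand to TATAAA (the TATA box), CCAAT (the CCAAT box), TTGGC (the core of sites of the NFI factors, which act in astrocytes) and TTCNNNGAA (the site type of STAT factors). CCAAT and TTGGC overlap wherever GCCAAT or its complement occurs.
Slc1a3: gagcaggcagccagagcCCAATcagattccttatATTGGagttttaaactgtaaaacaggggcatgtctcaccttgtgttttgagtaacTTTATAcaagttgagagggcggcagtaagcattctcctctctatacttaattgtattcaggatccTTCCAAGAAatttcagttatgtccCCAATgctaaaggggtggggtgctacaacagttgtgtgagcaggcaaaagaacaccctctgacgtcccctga
Gdf10: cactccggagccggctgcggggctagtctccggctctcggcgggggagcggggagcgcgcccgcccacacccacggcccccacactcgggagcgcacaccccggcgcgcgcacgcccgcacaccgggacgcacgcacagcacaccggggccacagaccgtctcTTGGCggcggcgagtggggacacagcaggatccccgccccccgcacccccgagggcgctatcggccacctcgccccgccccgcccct
S100b: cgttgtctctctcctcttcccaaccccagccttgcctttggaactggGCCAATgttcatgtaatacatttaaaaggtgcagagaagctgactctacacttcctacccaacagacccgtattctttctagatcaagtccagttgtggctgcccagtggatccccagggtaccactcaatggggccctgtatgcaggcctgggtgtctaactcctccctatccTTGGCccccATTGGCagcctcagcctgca

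The window of Slc1a3 held 1 TATAAA, 3 CCAAT and 1 TTCNNNGAA match, that of Gdf10 held 1 TTGGC match, and that of S100b held 2 CCAAT and 3 TTGGC matches. Among all 32851 RefSeq promoters of the same length, 12.4% held TATAAA, 33.8% CCAAT, 41.5% TTGGC and 7.02% TTCNNNGAA. The share of G and C was 44.8% for Slc1a3, 78.8% for Gdf10 and 53.6% for S100b, beside a median of 52.4%, and CG occurred 2, 35 and 2 times. A match is a description of letters and was not tied to any binding measured here.

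Other astrocyte genes were read from lists. Of 32 general astrocyte genes, 0 were called in any of the 3 comparisons, and their median log2 fold changes were 0.05, -0.00034 and -0.03, in the order 84Q against 15Q, 84Q+IGF1 against 15Q and 84Q+IGF1 against 84Q. In 84Q against 15Q, 2 were higher with an adjusted p under 0.1 at any fold change, beside 1.54% of all genes, and both fell short of the fold change for a call. These were Cst3, the secreted protease inhibitor cystatin C, at 173 ± 4.40 CPM in 15Q and 214 ± 3.27 CPM in 84Q (log2 fold change 0.30, adjusted p = 0.0187), and Acsbg1, an acyl-CoA synthetase, at 279.7 ± 9.82 and 320.5 ± 10.6 CPM (0.20, adjusted p = 0.0971). Cst3 was 185 ± 10.8 CPM in 84Q+IGF1. Microglia also express Cst3, and the summed level of 8 microglial genes was 145 to 172 CPM in 15Q, 173 to 213 CPM in 84Q and 156 to 168 CPM in 84Q+IGF1. Their median log2 fold change was 0.29 in 84Q against 15Q and -0.20 in 84Q+IGF1 against 84Q, where Cst3 was -0.21, and their part in the level of Cst3 was not tested. The genes with the highest TPM, Sparcl1, a matricellular protein, and Apoe, the lipid carrier, had log2 fold changes of -0.17 and -0.08 in 84Q.

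Of 14 further Bergmann glia genes, 0 were called. Without 84Q+IGF1 replicate 1, 1 of the 14 was called in 84Q+IGF1 against 15Q. Gria4, a subunit of the AMPA receptors of these cells, was 552 ± 11.0 CPM in 15Q and 472 ± 19.0 CPM in 84Q (log2 fold change -0.23, adjusted p = 0.0654). Etv5, a transcription factor that responds to FGF signals, was 74.5 ± 8.54 CPM in 15Q, 81.5 ± 0.599 CPM in 84Q and 97.3 ± 5.01 CPM in 84Q+IGF1 (0.39, adjusted p = 0.0203, 84Q+IGF1 against 15Q, where 1.04% of all genes were higher at any fold change). Its difference between 84Q+IGF1 and 84Q was 0.26 (adjusted p = 0.969). Sept4 and Gria1, with the highest TPM of the list, had log2 fold changes of 0.14 and -0.12 in 84Q.

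The reactive astrocyte list of 24 genes had 1 called gene in both comparisons with 15Q, the complement component C3, beside 2.14% and 2.25% of all genes. C3 was 10.9, 22.9 and 22.2 CPM in 15Q, 6.93, 3.82 and 3.99 CPM in 84Q, and 4.16, 5.98 and 5.24 CPM in 84Q+IGF1. All 15Q libraries were above the others. The log2 fold change was -1.91 (adjusted p = 0.0057) in 84Q and -1.87 (adjusted p = 0.0049) in 84Q+IGF1. C3 is also made by cells of the meninges and by other cells. At the same thresholds, 5 of 8 meningeal genes were lower in 84Q+IGF1 and 2 of 8 in 84Q than in 15Q. The share of all genes called in either direction was 2.25% and 2.14%. Col1a1 was among the meningeal genes called (-1.07 and -0.67). The summed level of the 8 meningeal genes was 114 to 167 CPM in 15Q, 61.3 to 104 CPM in 84Q and 56.9 to 75.9 CPM in 84Q+IGF1. Their part in the level of C3 was not tested. With the long gene covariate C3 was no longer called in 84Q (-1.32, adjusted p = 0.334). The 5 meningeal genes called in 84Q+IGF1 against 15Q became 3 without 15Q replicate 3, with choroid plexus RNA as a covariate or without the choroid plexus libraries, 1 with the long gene covariate and 8 without the filter on low counts. The 2 called in 84Q against 15Q became 0 without 15Q replicate 3 or with the long gene covariate, 1 without 15Q replicate 2, 84Q replicate 3 or the choroid plexus libraries and with the replicate block, 4 without the filter and 5 without 84Q replicate 2. The other 23 reactive genes, among them Vim, the intermediate filament vimentin, at 149 ± 13.1, 167 ± 15.8 and 158 ± 13.2 CPM in 15Q, 84Q and 84Q+IGF1, were not called. The median of the list was -0.07 in 84Q, with 11 of 24 higher, and -0.16 in 84Q+IGF1, with 7 of 24 higher. Among the genes with the lowest values, named after these were seen, the log2 fold change in 84Q+IGF1 against 15Q was -1.50 ± 0.53 (adjusted p = 0.173) for Lcn2, a secreted siderophore-binding protein, -1.36 ± 0.41 (adjusted p = 0.127) for Steap4, a metalloreductase, and -0.63 (adjusted p = 0.294) for Serpina3n, a protease inhibitor with close paralogs whose reads may be split between them. In 84Q against 15Q these were -0.85, -0.62 and -0.36 (adjusted p = 0.385, 0.417 and 0.549). The highest values of the list were 0.42 for Hspb1 in 84Q+IGF1 against 15Q and 0.32 for Cryab in 84Q, and neither was called. The number called in 84Q+IGF1 against 15Q was 2 with DESeq2, 3 with the 2 groups alone, 4 without the filter on low counts and 2 without any 1 of the 84Q libraries, and in 84Q against 15Q it was 2 without 84Q replicate 1 or 2.

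Of 14 genes that transport or convert glutamate and glutamine, 0 were called. In 84Q against 15Q, the log2 fold change of Got1, a cytosolic aminotransferase, was 0.28 (adjusted p = 0.0622), and that of Slc1a6, the glutamate transporter of Purkinje cells, was 0.34 (adjusted p = 0.0643). Slc17a7, the vesicular glutamate transporter of granule cells, was 0.22 (adjusted p = 0.193). The lowest value of the list, named after it was seen, was that of Slc17a6, a second vesicular glutamate transporter, at -0.79 (adjusted p = 0.508) in 84Q+IGF1 against 15Q and -0.78 (adjusted p = 0.969) in 84Q+IGF1 against 84Q. Without the filter on low counts Slc17a6 was called in both (adjusted p = 3.63e-10 and 6.18e-09). Its values moved with single libraries. Without 84Q+IGF1 replicate 1 they were -0.26 (adjusted p = 0.704) and -0.25 (adjusted p = 0.877), and without 84Q+IGF1 replicate 2 both were -1.17. Of 14 genes of the endfoot complex that anchors Aqp4, 0 were called and 0 had an adjusted p under 0.1 in any comparison. Kcnj10, the potassium channel beside Aqp4, was 312 ± 15.5, 299 ± 18.9 and 281 ± 19.9 CPM in 15Q, 84Q and 84Q+IGF1, with log2 fold changes of -0.06 (adjusted p = 0.701) and -0.15 (adjusted p = 0.310) against 15Q. Mlc1, a membrane protein of endfeet, had 0.21 (adjusted p = 0.168) and 0.16 (adjusted p = 0.295). The lowest of the list, also named after it was seen, was Sntb1, a syntrophin, at -0.54 (adjusted p = 0.355) and -0.69 (adjusted p = 0.260). Sntb1 was called in 84Q without 84Q replicate 2 (-1.02, adjusted p = 0.0741) and in 84Q+IGF1 against 15Q without the filter (-0.69, adjusted p = 0.0154). Other settings made it weaker. In 84Q it was -0.29 without 84Q replicate 3 and -0.03 with the long gene covariate. In 84Q+IGF1 against 15Q it was -0.17 with choroid plexus RNA as a covariate and -0.37 without the choroid plexus libraries.

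**Figure D5:**
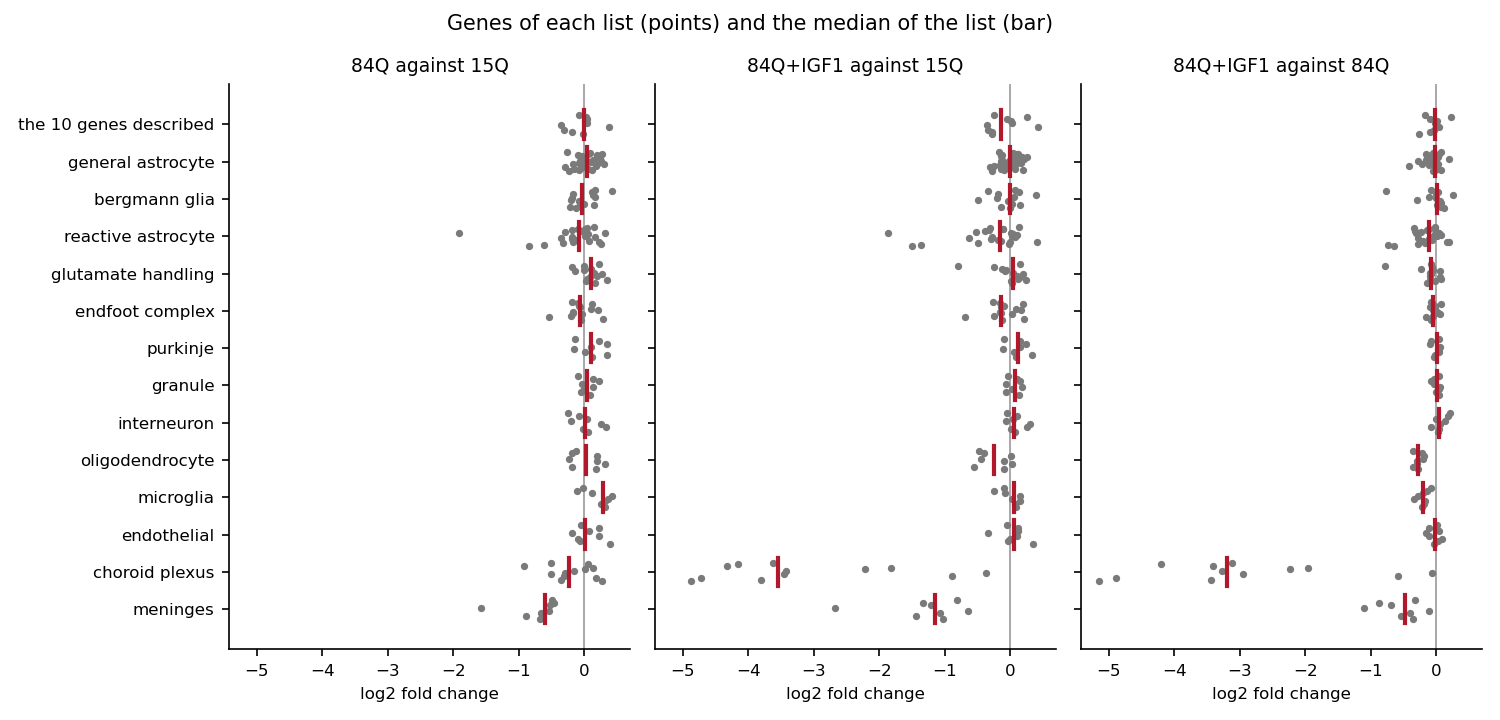
Log2 fold change of each gene (gray points) and the median (red bar) in the 10 genes and the 13 other lists, in the 3 comparisons. The astrocyte lists are centered near 0, with C3 as the lowest point of the reactive list in both comparisons with 15Q, whereas the medians of choroid plexus genes reach -3.55 and those of meningeal genes -1.14 in 84Q+IGF1 against 15Q.

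Genes of the neighboring cells give the setting of these values. Of 8 genes each for Purkinje cells, granule cells, interneurons, oligodendrocytes, microglia and endothelial cells, 0 were called in any comparison. At any fold change, Csf1r of microglia was higher in 84Q than in 15Q (log2 fold change 0.37, adjusted p = 0.0271), and Ugt8a and Cldn11 of oligodendrocytes were lower in 84Q+IGF1 than in 15Q (-0.48 and -0.41, adjusted p = 0.0495 and 0.0445). The 8 oligodendrocyte genes had a median of -0.28 in 84Q+IGF1 against 84Q, with 0 of 8 higher. At an unadjusted p under 0.05 there were 7 of the 8, beside 4.68% of all genes, and 0 had an adjusted p under 0.1. Without 84Q+IGF1 replicate 3, 1 of the 8 was called in 84Q+IGF1 against 15Q. Pcp2, a Purkinje cell protein, was 0.34 (adjusted p = 0.0936) and Tfap2b, a transcription factor of interneurons, -0.25 (adjusted p = 0.0898) in 84Q. Pvalb, a calcium-binding protein of interneurons and Purkinje cells, was 0.25 (adjusted p = 0.0876) in 84Q and 0.30 (adjusted p = 0.0484) in 84Q+IGF1 against 15Q. Choroid plexus genes had 0 calls, with medians of -0.23 in 84Q and -3.55 in 84Q+IGF1 against 15Q. In 84Q+IGF1 against 15Q, 11 of the 12 were called without the filter on low counts, 9 without 84Q replicate 2, 8 with the 2 groups alone and 1 without 84Q replicate 1 or 3, and in 84Q against 15Q 4 were called without 84Q replicate 2 and 1 without the filter or with the choroid plexus covariate. In 84Q+IGF1 against 84Q, 10 were called without the filter. Their part in the levels of the 10 genes was tested only through the covariate and the fit without those libraries, given with Slc1a3 and Aqp4.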

How the data were processed

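RNA of cerebellar tissue was sequenced from strand-specific, paired-end libraries. Per the submitters' processing notes, the authors trimmed reads with Trimmomatic 0.36, aligned them to mm10 (GRCm38.p6) with HISAT2 2.2.0 and counted them per gene with featureCounts, and they deposited raw read counts. The annotation and strand setting of the counting are not given in the sources used here, so overlapping antisense genes could add reads. Genes were named and measured with GENCODE vM21, and TPM used the union of exons. The counts were tested in edgeR 4.0.16 (R 4.3.3; TMM, filterByExpr, quasi-likelihood fit to all 9 libraries, Benjamini-Hochberg over 19353 genes), two-sided, and with DESeq2 1.42.0. Standard errors came from the F statistic, and a prior count of 2 was added for log2 CPM. The steps were checked on simulated counts. A floor of 3 counts was 0.0512 to 0.171 CPM. The study describes the RNA-seq data as belonging to individual mice, and the labels give no animal for each library beyond a code in its title. The 10 genes and the lists were chosen with earlier results of these data known. Genes named from a list were drawn from up to 3 called genes with the smallest p, otherwise up to 2, and the 2 with the highest mean TPM; genes with an adjusted p under 0.1 were added after their values were seen. Replicates differed by more than counting noise. Promoters are from RefSeq, for 9 of the 10 genes. Some genes of the lists are not reported here.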

Additional observations from a re-analysis of the deposited data

How the results depend on the processing

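No member was called with DESeq2, with DESeq2 size factors, without the filter on low counts, at an adjusted p under 0.05, with robust shrinkage, in the groups compared alone, or with Xist, choroid plexus RNA or long genes as a covariate. At any fold change 1 was called (Aqp4) in 84Q+IGF1 against 15Q. With the replicate number as a block, 0, 0 and 0 members were called in the 3 comparisons. Over all genes 242 and 271 were called against 15Q, in place of 414 and 435. Of the 9 libraries, 0 correlated best with their own number. Some title codes begin alike in 84Q and 84Q+IGF1, and the labels do not say what they or the replicate numbers mean. A shared litter, cage or day was not tested. With 1 library left out, the number of members called ran from 0 to 1 in both comparisons with 15Q, the 1 being Slc1a3 without 15Q replicate 1, and was 0 in 84Q+IGF1 against 84Q. Without the 3 libraries with choroid plexus RNA it was 1 and 1, again Slc1a3. This setting and the long gene covariate were chosen after seeing the data.

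The sign changed as follows, in each case for a value that had not passed the test, and the cause was not tested. In 84Q against 15Q with the long gene covariate the log2 fold change was 0.43 for Gfap, 0.024 for Slc1a2, -0.027 for S100b and -0.69 for Fabp7. With choroid plexus RNA as a covariate it was 0.014 for Gfap, -0.0020 for S100b and -0.068 for Fabp7, and with Xist 0.097 for Gfap and -0.13 for Fabp7. Without the choroid plexus libraries it was -0.017 for S100b. In 84Q+IGF1 against 15Q the long gene covariate gave 0.040 for Gfap, -0.0041 for S100b, 0.011 for Glul and -0.23 for Fabp7, choroid plexus RNA gave 0.010 for Glul and -0.0025 for S100b, Xist gave -0.0022 for Aldh1l1, and leaving out the choroid plexus libraries gave -0.015 for S100b. In 84Q+IGF1 against 84Q, Gdf10 was 0.00050 without the filter, 0.00048 with DESeq2, 0.0090 with the replicate block, 0.013 with Xist, 0.025 with choroid plexus RNA, 0.028 with the long gene covariate and 0.099 without the choroid plexus libraries. Choroid plexus RNA gave 0.022 for Slc1a2 and -0.00045 for S100b there, and leaving out those libraries 0.017 for Slc1a2.

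With 1 library left out, the signs of these values varied. In 84Q against 15Q the range was -0.15 to 0.16 for Gfap, -0.0012 to 0.11 for Aldh1l1, -0.026 to 0.031 for S100b, -0.35 to 0.21 for Fabp7 and -0.29 to 0.032 for Hopx. In 84Q+IGF1 against 15Q it was -0.021 to 0.069 for Aldh1l1, -0.014 to 0.043 for S100b and -0.078 to 0.012 for Glul. In 84Q+IGF1 against 84Q it was -0.12 to 0.067 for Slc1a2, -0.0025 to 0.088 for Slc1a3, -0.15 to 0.099 for Gdf10, -0.079 to 0.029 for Aldh1l1 and -0.28 to 0.047 for Hopx. Aqp4, Slc1a2, Slc1a3 and Gdf10 kept their direction in both comparisons with 15Q under each alternative, except Slc1a2 in 84Q with the long gene covariate. Without the filter on low counts, 3, 5 and 1 members had an adjusted p under 0.1, beside 6.5%, 6.25% and 0.701% of the 37816 genes then tested. With Spearman's in place of Pearson's correlation, 0 of the 5 genes most like the members were the same. With 3 libraries a group, the 95% interval in 84Q against 15Q was narrowest for S100b (-0.11 to 0.13) and widest for Fabp7 (-0.51 to 0.57). The smallest difference that could be detected was not computed.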
